A study of Mus musculus with 11 samples.

Results

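The genes described here were the imprinted growth genes Mest, Peg3, Plagl1, Grb10 and Dlk1 and the imprinted non-coding RNAs H19, Meg3, Rian, Mirg and Kcnq1ot1, 10 genes in all. They were taken by gene symbol, and every array probe whose RefSeq accession belonged to one of them was used. Probes were found for 8 of the 10 genes, out of 20284 genes that could be named on the array. These 8 genes had 18 of the 55681 probes, and all 18 passed the filter on dim probes that 47997 probes passed. The probe with the highest mean signal was taken as the main probe of a gene. H19 and Rian had no probe that could be named through an accession, and their expression was not analysed here. A probe listed under an older accession that the RefSeq table does not hold stayed unnamed, so probes for H19 or Rian may be among those not used.

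Gene expression was measured on 11 single-colour arrays. Otospheres (OS) are floating spheres grown from dissociated cells of the cochlear sensory epithelium (CSE), and the question of the study was which genes set them apart from that epithelium and from embryonic stem cells (ESCs, ES). OS and CSE were prepared from ICR mice at postnatal day 1, with 10 mice and 20 cochleae pooled per preparation. The cells of the OS were passaged 1 time and grown for 4 to 5 days before and again after the passage with bFGF at 10 ng/mL and IGF1 at 50 ng/mL, and hollow spheres were then filtered out. CSE was uncultured tissue. The 2 ESC samples were different lines, G4-2 (ES1) and D3 (ES2), both at passage 13 in 10% serum with LIF at 1000 U/mL and without feeder cells. No sample carried a stated genetic change or drug treatment. OS1 with OS2 and OS4 with OS5 differed by less than the noise between spots of the 2 arrays combined (ratios 0.884 and 0.391, against 1.64 to 3.27 in the 17 other pairs within a group). Each pair was therefore counted as 1 sample, written OS1+2 and OS4+5. This left 4 OS, 3 CSE and 2 ESC samples. Slide 1 held ES1, OS1+2, OS3, CSE1 and CSE2, and slide 2 held ES2, OS4+5, OS6 and CSE3.

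Between 55.1% and 71.6% of probes per array were well above background. The 8 fixed markers of ESCs had a mean log2 intensity of 13.04 to 13.14 in ESCs and of 6.62 to 7.50 in the other samples. Of these, 7 were higher in ESCs. The probe used for Nanog went the other way, at a mean of 8.38 in ESCs, 9.82 in OS and 10.03 in CSE. Only the brightest kept probe of each marker gene was used. The study itself lists Nanog among the genes high only in ESCs, so this probe does not give the level of Nanog. The 8 supporting cell markers averaged 12.5 to 12.6 in CSE, 9.83 to 10.5 in OS and 7.30 to 7.64 in ESCs. Of these, 7 were higher in CSE than in ESCs. Sox2 was highest in ESCs, at a mean of 12.59, against 10.99 in CSE and 8.23 in OS. Neuronal markers averaged 10.97 to 12.19 in CSE and 7.78 to 8.16 in OS, mesenchymal markers averaged 11.8 to 12.3 in CSE and 7.95 to 11.7 in OS, and erythroid markers averaged 10.8 to 11.5 in CSE and 5.42 to 5.78 in OS. Markers of several cell types were thus high in CSE.

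Imprinted genes are expressed mainly from the copy inherited from one parent, under the control of DNA methylation marks laid down in the germ line. Many of them act on growth before birth. Mest, Peg3, Plagl1, Dlk1 and Kcnq1ot1 are expressed from the paternal copy and H19, Meg3, Rian and Mirg from the maternal copy, while the parental copy of Grb10 in use depends on the tissue. Dlk1, Meg3, Rian and Mirg lie in this order in 1 imprinted domain on chromosome 12, where the non-coding RNAs are read in the same direction and hold clusters of microRNAs. The parent of origin cannot be read from these arrays, which measured the sum of both copies.

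Several of these transcripts contain microRNA sequences. In the RefSeq annotation of GRCm38.p6, 60 microRNA genes lie between the start of Meg3 and the end of Mirg. Of these, 10 with 19 mature sequences lie inside Mirg, while Meg3 holds 3 mature sequences and Rian 6. Outside this region, 2 mature sequences lie inside Mest on chromosome 6 and 2 inside H19 on chromosome 7. Those inside Mest and Mirg, the measured host genes that passed a test between groups, are shown with the seed, bases 2 to 8, in capitals, each 5′ to 3′. For Mest both sequences are given, and for Mirg the only 2 of its 19 that share a seed and the pair from miR-410. The RNA measured here was the host transcript, and the level of the mature microRNAs was not analysed.
mmu-miR-335-5p (Mest, chr6:30741314-30741336, plus strand): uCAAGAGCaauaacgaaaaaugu
mmu-miR-335-3p (Mest, chr6:30741354-30741375, plus strand): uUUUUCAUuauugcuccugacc
mmu-miR-453 (Mirg, chr12:109735669-109735692, plus strand): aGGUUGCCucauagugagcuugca
mmu-miR-496a-5p (Mirg, chr12:109739132-109739152, plus strand): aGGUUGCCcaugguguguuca
mmu-miR-410-5p (Mirg, chr12:109743729-109743749, plus strand): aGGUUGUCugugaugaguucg
mmu-miR-410-3p (Mirg, chr12:109743764-109743784, plus strand): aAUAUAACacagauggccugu

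Between OS and CSE, 2 of the 8 measured genes were lower in OS and none was higher. These were Mest and Peg3. Over all probes kept, 6.19% were lower and 4.84% higher in OS at the same threshold, an adjusted p under 0.05 (limma, Benjamini-Hochberg over 47997 probes). Against ESCs, 3 genes were lower in OS (Dlk1, Mirg and Peg3) and Plagl1 was higher, where 15.6% of all probes were lower and 12.1% higher. Dlk1 and Mirg were also lower in CSE than in ESCs, and Mest and Plagl1 were higher there, where 15.6% of all probes were lower and 13.2% higher. The samples of OS and CSE did not overlap for 2 of the 8 genes, those of OS and ESCs for 6 and those of CSE and ESCs for 5, where this held for 23.4%, 46.2% and 52.2% of all probes. In an F-test over the 3 groups, 5 of the 8 genes passed, against 33.8% of all probes. The median difference of the 8 genes was -0.78 between OS and CSE, -1.38 between OS and ESCs and 0.14 between CSE and ESCs, on the log2 scale, against 0.02, -0.03 and -0.06 over all probes. The comparisons share samples and are not independent of each other.

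**Figure D1:**
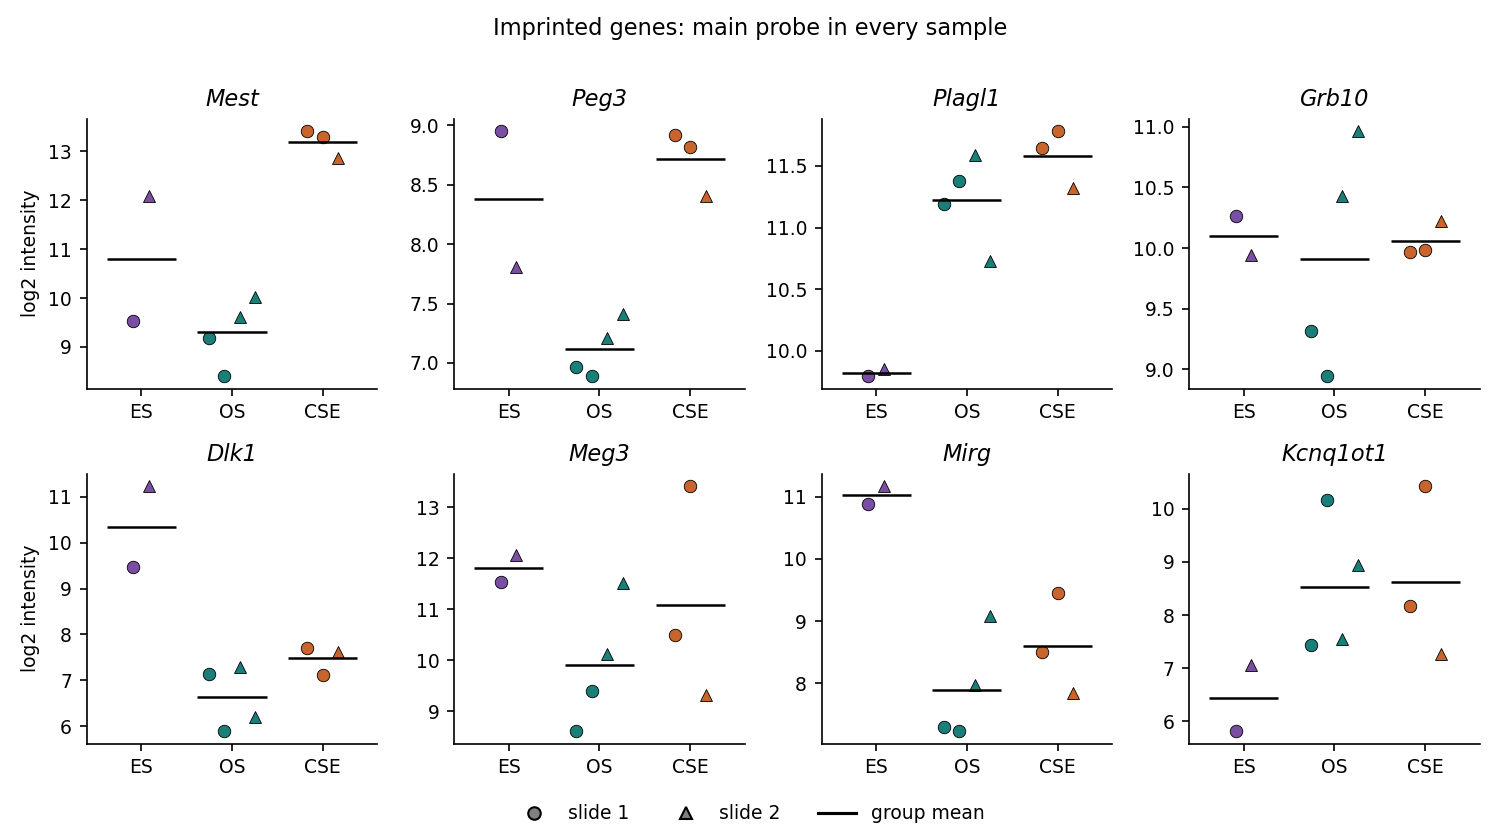
Log2 intensity of the main probe (y axis, a separate scale in each panel) of the 8 measured genes in ESCs, OS and CSE (x axis). Each point is 1 sample, circles are slide 1, triangles are slide 2 and the line is the group mean. Mest and Peg3 in OS lie below all CSE samples, Dlk1 and Mirg are highest in both ESC samples, and Meg3 in CSE ranges from 9.31 to 13.42.

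Mest, an imprinted gene for a predicted hydrolase that is expressed widely in embryonic mesoderm, showed the largest difference between OS and CSE of the 8 genes. Its log2 intensity was 9.18 in OS1+2, 8.40 in OS3, 9.61 in OS4+5 and 10.03 in OS6. It was 13.42 in CSE1, 13.30 in CSE2 and 12.86 in CSE3. Every OS sample lay below every CSE sample. The mean was 9.30 ± 0.70 in OS (SD, n = 4) and 13.19 ± 0.29 in CSE (SD, n = 3), a difference of -3.89 (SE 0.58, 14.8-fold lower in OS, adjusted p = 0.00337). The main probe is spotted 10 times on the array, and its values are means over these spots. The 2 other probes of Mest gave differences of -2.82 and -2.10 (adjusted p = 0.0292 and 0.0379).

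In ESCs, Mest was at 9.53 in the G4-2 line and 12.08 in the D3 line. The D3 value lay closer to CSE and the G4-2 value within the range of OS. CSE exceeded ESCs by 2.39 (SE 0.70, adjusted p = 0.0307), but the 2 other probes did not pass (1.63 and 0.90, adjusted p = 0.176 and 0.352), and with ES1 left out the difference was 1.11 (adjusted p = 0.208). OS and ESCs overlapped, with a difference of -1.50 (adjusted p = 0.131), which was -2.78 and passed with ES1 left out (adjusted p = 0.00793). With any 1 CSE sample left out, CSE minus ES did not pass (adjusted p = 0.0548 to 0.0854).

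Peg3, which encodes a large zinc finger protein and is highly expressed in brain and embryo, was at 6.97 in OS1+2, 6.89 in OS3, 7.21 in OS4+5 and 7.42 in OS6. In CSE it was at 8.92, 8.81 and 8.41, in the order of CSE1 to CSE3. In ESCs it was at 8.95 in G4-2 and 7.81 in D3, so that all OS samples were below all samples of both other groups. The mean was 7.12 ± 0.24 in OS and 8.71 ± 0.27 in CSE (SD, n = 4 and 3), a difference of -1.59 (SE 0.28, 3.02-fold, adjusted p = 0.00771). Against ESCs the difference was -1.26 (SE 0.32, adjusted p = 0.0176). With ES1 left out it was -0.69 (adjusted p = 0.137). CSE and ESCs differed by 0.33 (adjusted p = 0.529). The second, dimmer probe of Peg3 gave -0.86 between OS and CSE and -0.90 between OS and ESCs, and neither passed (adjusted p = 0.147 and 0.106).

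Markers of other cell types also differed between OS and CSE. Of 8 neuronal markers 6 were lower in OS than in CSE, with a median difference of -4.22. Elavl3 was not well above background on any OS array, the 7 other neuronal markers were so on 4 to 6 of the 6 OS arrays, and Snap25 was level, at a mean of 12.34 in OS and 12.32 in CSE. Of 10 mesenchymal markers 1 passed as lower in OS, with a median of -1.65. Of 8 hair cell markers 5 were lower in OS, with a median of -2.09, and of 8 supporting cell markers 7, with a median of -2.68. Mesenchymal markers averaged 11.7 in OS3 and 7.95 in OS6, while Mest was lowest in OS3 and highest in OS6. Hair cell markers averaged 6.83 in OS3, 7.37 in OS1+2, 8.28 in OS4+5 and 8.72 in OS6, the same order as Mest. This order is not particular to Mest, since Peg3, Mirg and Grb10 followed it too. It also goes with the slides, with OS3 and OS1+2 on slide 1 and OS4+5 and OS6 on slide 2. The part of these cells in the differences of Mest and Peg3 was not tested, and in tissue fewer cells of a type and less RNA per cell cannot be told apart.

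Mest and Peg3 were the 2 measured genes that were lower in OS than in CSE, and their promoter windows are shown for that reason. Each runs from 250 bases before to 50 bases after a RefSeq start site (GRCm38.p6), 5′ to 3′ on the strand of the gene. Capitals mark TGCCGC or its reverse complement GCGGCA, the core letters of the motif that the imprint-protecting protein Zfp57 binds when it is methylated.
Mest (chr6:30737800-30738099, plus strand): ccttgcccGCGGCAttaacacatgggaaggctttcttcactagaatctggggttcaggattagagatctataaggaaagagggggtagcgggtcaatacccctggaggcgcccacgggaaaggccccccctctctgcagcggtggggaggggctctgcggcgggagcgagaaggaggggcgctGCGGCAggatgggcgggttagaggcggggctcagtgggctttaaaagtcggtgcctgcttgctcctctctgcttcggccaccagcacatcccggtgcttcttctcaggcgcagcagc
Peg3 (chr7:6730370-6730669, minus strand): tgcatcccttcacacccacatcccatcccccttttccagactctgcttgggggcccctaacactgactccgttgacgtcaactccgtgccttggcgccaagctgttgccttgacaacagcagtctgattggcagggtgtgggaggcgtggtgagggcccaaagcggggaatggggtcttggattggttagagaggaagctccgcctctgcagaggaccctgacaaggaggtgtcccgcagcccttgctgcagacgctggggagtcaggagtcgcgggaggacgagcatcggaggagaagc
The Mest window shown held 2 such matches and the Peg3 window 0, while a Mest window further upstream also held 0. Of 32851 promoter windows in the table, 11.6% held at least 1. Of the 13 windows of the listed genes, 5 held at least 1, including overlapping windows of Mest. Of the 9 listed genes with a window, 4 (Mest, Plagl1, Grb10 and Meg3) held a match in at least 1 window. This count by gene is not comparable with the share of windows, since some genes have more than 1 window. A match of 6 letters is a description of the sequence only.

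**Figure D2:**
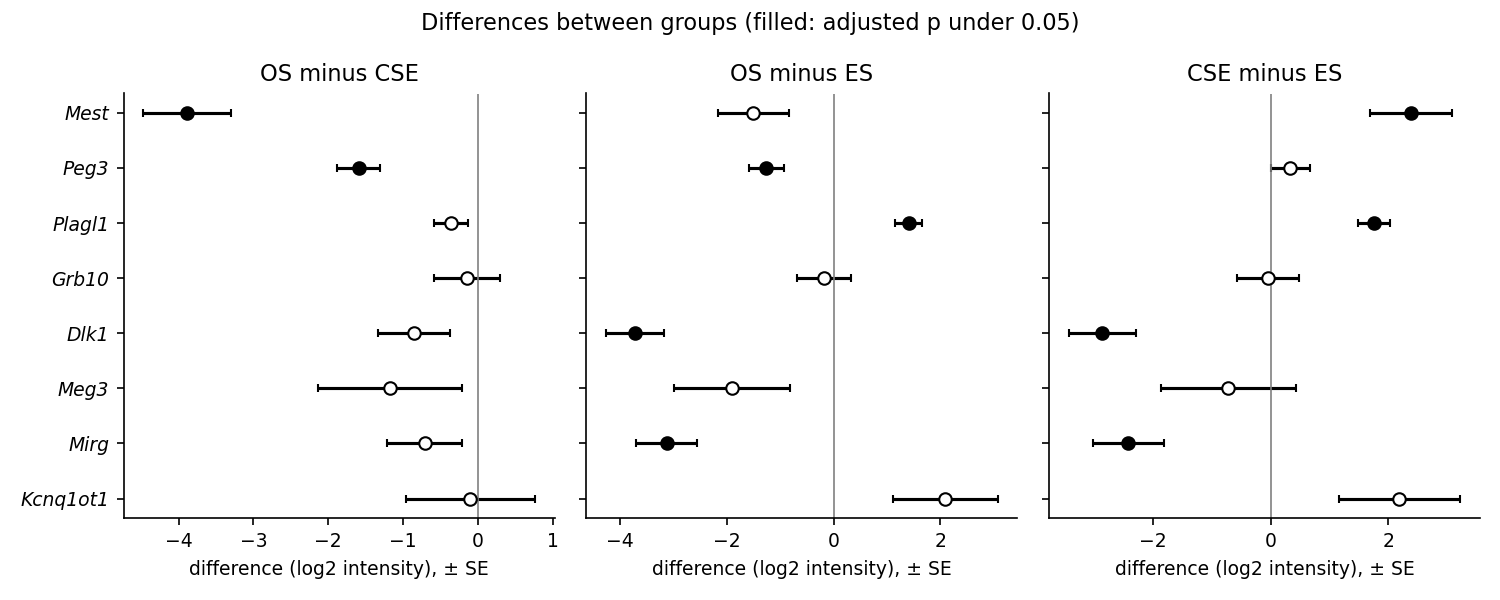
Differences between groups in log2 intensity (x axis) of the main probe of the 8 genes (y axis), 1 panel per comparison. Points are limma estimates, bars are ± 1 SE, and filled points have an adjusted p under 0.05. Mest lies furthest to the left for OS minus CSE, at -3.89, and Dlk1 for OS minus ES, at -3.72.

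Plagl1, a zinc finger transcription factor that regulates other imprinted genes, was higher in both cochlear groups than in ESCs. It was at 9.79 in G4-2 and 9.85 in D3. In OS it was at 11.19, 11.38, 11.59 and 10.73, in the order of OS1+2, OS3, OS4+5 and OS6, and in CSE at 11.64, 11.78 and 11.32 in CSE1 to CSE3. Both ESC values were below all others, while OS and CSE overlapped. OS exceeded ESCs by 1.40 (SE 0.25, 2.64-fold, adjusted p = 0.00323) and CSE by 1.76 (SE 0.27, 3.39-fold, adjusted p = 0.00127). OS and CSE differed by -0.36 (adjusted p = 0.438). Of the 3 other Plagl1 probes, 2 were also higher in OS and CSE than in ESCs. One of these 2 turned sign between OS and CSE, at a mean of 7.87 in OS and 7.40 in CSE. On it every OS sample lay above every CSE sample, but the difference of 0.47 did not pass (limma, adjusted p = 0.0764). The third other probe was at 7.42 in ESCs, 7.26 in OS and 7.12 in CSE and passed no test. The probes of Plagl1 thus did not all show the same pattern.

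Grb10 encodes an adaptor protein that binds the insulin and IGF1 receptors and restrains growth. Its log2 intensity was 10.26 in G4-2 and 9.94 in D3, and 9.97, 9.98 and 10.22 in CSE1 to CSE3. In OS it was 9.32 in OS1+2, 8.94 in OS3, 10.43 in OS4+5 and 10.96 in OS6. The OS samples lay on both sides of all ESC and CSE values. The group means were 10.10 in ESCs, 9.91 in OS and 10.06 in CSE, with an SD of 0.94 in OS and 0.14 in CSE, and no comparison passed (adjusted p = 0.929 for OS and CSE). The OS samples of slide 2 exceeded those of slide 1 by 1.57 (SE 0.28, unadjusted p = 0.00241, adjusted p = 0.189 in limma).

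Dlk1, a transmembrane protein with EGF-like repeats related to the Notch ligands, was highest in ESCs. It was at 9.46 in G4-2 and 11.24 in D3. In OS it was at 7.15 in OS1+2, 5.89 in OS3, 7.29 in OS4+5 and 6.20 in OS6, and in CSE at 7.71, 7.13 and 7.61. Both ESC values lay above all others, and OS and CSE overlapped. OS was lower than ESCs by a difference of -3.72 (SE 0.54, 13.2-fold, adjusted p = 0.00103) and CSE by -2.87 (SE 0.57, 7.30-fold, adjusted p = 0.00521). The difference between OS and CSE was -0.85 (SE 0.48, adjusted p = 0.367). The second, dimmer Dlk1 probe was well above background on both ESC arrays but on only 2 of 6 OS and 2 of 3 CSE arrays, so that the size of its differences is limited by the background.

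Mirg, the non-coding RNA at the far end of the domain from Dlk1, was also highest in ESCs, at 10.88 in G4-2 and 11.17 in D3. It was at 7.30 in OS1+2, 7.23 in OS3, 7.98 in OS4+5 and 9.08 in OS6, and at 8.50, 9.46 and 7.85 in CSE1 to CSE3. ESCs did not overlap with either group. OS differed from ESCs by -3.13 (SE 0.57, 8.75-fold, adjusted p = 0.00328) and CSE by -2.42 (SE 0.60, 5.37-fold, adjusted p = 0.0148). With ES1 or ES2 left out, the difference for CSE was -2.57 and -2.27 and did not pass (adjusted p = 0.0507 and 0.0769). OS and CSE differed by -0.71 (adjusted p = 0.514).

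Meg3, a maternally expressed non-coding RNA next to Dlk1, varied widely within OS (SD 1.23, n = 4) and CSE (SD 2.11, n = 3). It was at 11.53 in G4-2 and 12.06 in D3. In OS it was at 8.60 in OS1+2, 9.39 in OS3, 10.11 in OS4+5 and 11.51 in OS6. In CSE it was at 10.50 in CSE1, 13.42 in CSE2 and 9.31 in CSE3. CSE2 held the highest value of all 9 samples, and CSE1 and CSE3 lay within the range of OS. On this main probe, both ESC values were above all OS values. No comparison passed, with differences of -1.17 for OS minus CSE (SE 0.96, adjusted p = 0.595), -1.90 for OS minus ES (SE 1.09, adjusted p = 0.245) and -0.72 for CSE minus ES (SE 1.15, adjusted p = 0.705). With CSE2 left out, the difference between OS and CSE was -0.0035 (adjusted p = 0.999). CSE2 was also the highest sample on the 2 other Meg3 probes, at 11.69 and 10.89. Neither of these probes passed a comparison. In the same order, they gave -2.50 and -1.17 for OS minus CSE and -1.14 and -2.80 for OS minus ES. For CSE minus ES they gave 1.36 and -1.63, so that the first had the opposite sign to the main probe. On this first probe, OS6 at 7.27 lay above ES1 at 7.17.

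Across the 9 samples, Pearson's r was 0.78 between Meg3 and Mirg, 0.80 between Mirg and Dlk1 and 0.36 between Meg3 and Dlk1. These are descriptions over samples of 3 groups on 2 slides. Mirg and Dlk1 shared the high level in both ESC lines, and Meg3 and Mirg were both highest among OS in OS6 and among CSE in CSE2.

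Kcnq1ot1 is a long paternally expressed RNA that is read antisense to Kcnq1 and silences neighbouring genes. Its log2 intensity was 5.81 in G4-2 and 7.06 in D3. In OS it was 7.43 in OS1+2, 10.16 in OS3, 7.55 in OS4+5 and 8.94 in OS6, and in CSE it was 8.18 in CSE1, 10.43 in CSE2 and 7.27 in CSE3. Both ESC values lay below all others, but 2 samples, OS3 and CSE2, stood above the rest, and no comparison passed. OS differed from ESCs by 2.09 (SE 0.98, adjusted p = 0.157), CSE from ESCs by 2.19 (SE 1.03, adjusted p = 0.157) and OS from CSE by -0.10 (adjusted p = 0.978). The second probe was well above background on 6 of 6 OS arrays, 2 of 3 CSE arrays and neither ESC array. For a dim probe, the higher of its own signal and the lowest signal well above background on that array was taken. With this, its mean was at least 1.59-fold higher in OS and at least 1.85-fold higher in CSE than in ESCs. The fitted differences did not pass (limma, adjusted p = 0.239 for OS and 0.166 for CSE). The samples overlapped, since ES2 at 5.69 lay above OS1+2 at 5.61 and CSE3 at 5.64. Kcnq1, the maternally expressed potassium channel gene that Kcnq1ot1 overlaps, was at a mean of 5.76 in ESCs (well above background on 1 of 2 arrays), 11.01 in OS and 9.88 in CSE, and was higher in OS than in CSE by 1.13 (adjusted p = 0.0217).

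The samples in which Kcnq1ot1 was high also differed in other RNAs that are retained in the nucleus. Malat1 was at 11.03 in OS3 and 10.19 to 10.72 in the other OS samples, and at 10.74 in CSE2 against 8.17 and 9.56 in CSE1 and CSE3. Neat1 was at 14.57 in OS3 against 12.97 to 13.97 in the other OS samples, and at 10.20 in CSE2 against 7.64 and 7.23. Xist was at 10.83 in OS3 against 8.73 to 8.79 in the other OS samples, and at 10.37 in CSE2 against 8.53 and 8.70. The mean of Malat1, Neat1 and Xist was 12.1 in OS3 and 10.4 in CSE2, the highest value of each group. This list was set up after Kcnq1ot1 and Meg3 had been seen to be high in CSE2, and the part of RNA composition in their levels was not tested. With OS3 and CSE2 both left out, Mest still passed between OS and CSE, while Peg3 did not, at -1.47 against CSE (adjusted p = 0.0575) and at -1.18 against ESCs (adjusted p = 0.0541).

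The difference between OS and CSE was also taken on each slide alone, without a test. For Mest it was -4.57 on slide 1 and -3.04 on slide 2, and for Peg3 -1.94 and -1.10. Dlk1 was at -0.90 and -0.87 and Plagl1 at -0.43 and -0.16. The sign turned for the other 4 genes. Meg3 was at -2.96 on slide 1 and 1.50 on slide 2, Mirg at -1.71 and 0.68, Grb10 at -0.84 and 0.47, and Kcnq1ot1 at -0.50 and 0.98. Slide and any difference in preparation between its samples cannot be told apart. Within OS, no probe of the array passed an adjusted p of 0.05 between slides in limma. At an unadjusted p under 0.05, 4 of the 8 genes (Meg3, Mirg, Mest and Grb10, all higher on slide 2) and 13.4% of all probes passed.

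**Figure D3:**
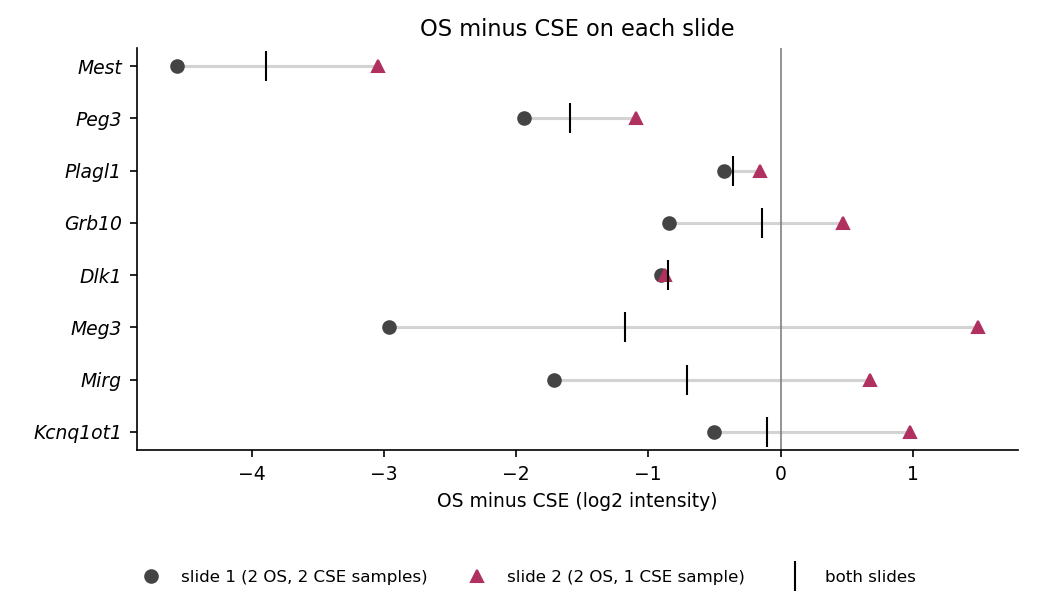
OS minus CSE in log2 intensity (x axis) of the 8 genes (y axis) on slide 1 (circles), slide 2 (triangles) and both (bars). Mest and Peg3 stay left of 0 on both slides, while Meg3 spans from -2.96 to 1.50.

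The 2 ESC lines had 1 array each, on different slides, so line and slide cannot be told apart and no test was possible. Of the 8 genes, 4 differed by more than 2-fold, against 14.3% of all probes. Mest was 5.85-fold and Dlk1 3.42-fold higher in D3, Kcnq1ot1 was 2.37-fold higher in D3, and Peg3 was 2.22-fold higher in G4-2. A difference as large as that of Mest, in either direction, was seen for 1.68% of all probes. All 3 probes of Mest (log2 differences of -2.73 to -2.01 for G4-2 minus D3) and both probes of Dlk1 (-1.78 and -2.18) were higher in D3. The second Peg3 probe was 1.70-fold higher in G4-2. Under other processing, G4-2 minus D3 ranged from -1.86 to -0.89 for Kcnq1ot1 and from 0.96 to 1.33 for Peg3. Both could thus fall under 2-fold. The nuclear RNAs Malat1 and Neat1 were also higher in D3, at 9.41 and 10.67, against 7.43 and 7.80 in G4-2. Xist was not well above background on either ESC array. The part of RNA composition in the difference of Kcnq1ot1 between the lines was not tested. For G4-2 minus D3, Plagl1 differed by -0.06, Mirg by -0.30, Grb10 by 0.32 and Meg3 by -0.53 on the log2 scale, where the noise between spots of a pair of arrays was 0.19.

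Other imprinted genes were set beside these 8. Of 20 paternally expressed genes that passed the filter, from a list of 21, 8 were lower in OS than in CSE and none was higher, with a median difference of -0.95, where 6.19% of all probes were lower and 4.84% higher. Of 19 maternally expressed genes, 3 were lower and 2 higher, with a median of 0.06. The largest falls were in Nnat, a small membrane protein of neural tissue (-4.19), Rasgrf1, an exchange factor for Ras (-3.04), Cdkn1c, a cell cycle inhibitor (-2.90), Nap1l5 (-1.95) and Usp29 (-1.79), a neighbour of Peg3 that was well above background on 2 of 6 OS arrays. Beside them, 6 of 8 neuronal markers were lower in OS (median -4.22), and the part of neuronal cells in these falls was not tested. The 2 rises were Igf2r, the receptor that clears IGF2 (1.66, adjusted p = 0.000525), and Kcnq1 (1.13). Igf2, the main fetal growth factor among imprinted genes, was at a mean of 7.63 in OS and 9.09 in CSE and did not pass (-1.46, adjusted p = 0.125).

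Against ESCs, 9 of the 39 other imprinted genes were higher and 12 lower in OS, and 16 were higher and 9 lower in CSE. Over all probes, 12.1% were higher and 15.6% lower in OS, and 13.2% higher and 15.6% lower in CSE. Kcnq1 (5.25 in OS and 4.12 in CSE) and Peg13 (5.01 and 5.83) rose most. Slc38a4, an amino acid transporter (-5.19 and -4.18), and Phlda2, which limits placental growth (-5.04 and -5.66), fell most, with Phlda2 well above background on 1 of 3 CSE arrays. Dio3, at the end of the domain that holds Dlk1 and Meg3, was also lower than in ESCs in OS (-1.20, adjusted p = 0.0291) and in CSE (-1.59, adjusted p = 0.0102).

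Of 10 genes for proteins that set or protect imprints, 8 were lower in OS and the same number lower in CSE than in ESCs, where 15.6% of all probes were lower in either comparison, and none differed between OS and CSE by this test (limma). At an unadjusted p under 0.05, 2 of them differed between OS and CSE, as did 22.3% of all probes. Large falls were seen for Dnmt3l, a cofactor of de novo DNA methylation (-6.76 in OS and -8.42 in CSE), Uhrf1, which guides maintenance of DNA methylation (-3.22 and -2.85), and Trim28, the partner of Zfp57 (-2.76 and -2.48). Dppa3, which protects methylation in the early embryo, was well above background on both ESC arrays and on no OS or CSE array, and it was at least 60.6-fold lower in OS (adjusted p = 6.55e-06) and at least 57.9-fold lower in CSE (adjusted p = 9.96e-06). Zfp57, whose motif is marked in the Mest window, was at a mean of 9.19 in ESCs, 7.98 in OS and 8.08 in CSE (adjusted p = 0.0578 and 0.0901 against ESCs).

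**Figure D4:**
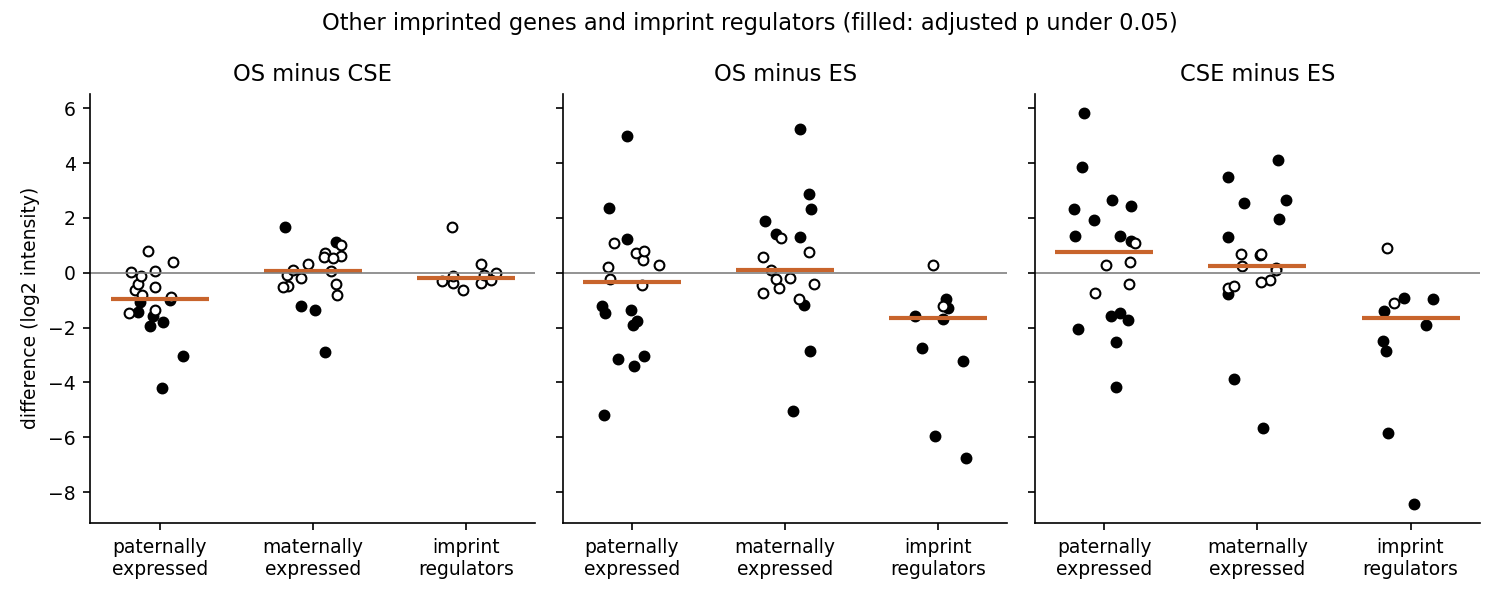
Difference in log2 intensity (y axis) of 20 paternally expressed genes, 19 maternally expressed genes and 10 imprint regulators (x axis), 1 panel per comparison. Each point is a gene, filled points have an adjusted p under 0.05, and the bar is the median. A gene that was not well above background in a group is plotted at its fitted difference. The median of the paternally expressed genes is -0.95 for OS minus CSE, and that of the regulators lies below -1.6 against ESCs in both OS and CSE.

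For the measured genes other than Meg3, the named genes with the most similar pattern over the 9 samples were sought. The candidates were 13040 probes of named genes with a mean log2 intensity of at least 8. Mest was closest to Pdhx (Pearson's r = 0.99), Serpini1 (0.97) and Rxrg (0.96). Peg3 was closest to Igsf21 (0.97), Dusp26 (0.97) and Camk2b (0.97), Dlk1 to Slc25a26, Etv5 and Fam118a (all 0.99), and Mirg to Dhx30 (0.97), Cnot10 (0.96) and Uspl1 (0.96). Plagl1 was closest to Ccser2 (0.98), Gng10 (0.98) and Txndc15 (0.98), and Kcnq1ot1 to Pigr (0.99), Notch1 (0.98) and Ttc14 (0.98). Grb10 was closest to Tom1 (0.96), Gm8096 (0.95) and Phgdh (0.94). With 9 samples from 3 groups, these values describe shared group and sample levels.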

How the data were processed

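RNA labelled with Cy3 was hybridized to 11 SurePrint G3 Mouse GE 8x60K arrays. The deposited scanner files, written by Feature Extraction 10.7.3.1, give the median intensity of every spot and of its surroundings on a linear scale, a processed intensity, and quality flags. A second file from the authors, their own corrected, quantile-normalized and filtered log2 values, entered as an alternative only. Here, normexp with an offset of 16 (limma 3.58.1, R 4.3.3) was applied to the median intensities, followed by the log2 transform and quantile normalization of all arrays. Spots with an outlier flag were dropped, and a probe's value was the mean of its remaining spots. The filter required a probe to exceed the 95th percentile of the 308 negative controls by 10% on 2 arrays or more. Differences are therefore relative to the signal of all probes. Median spot intensity was 68 to 116 over a median background of 32 to 38, and precision is limited by the number of arrays.

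Probes were named by matching their accession, without its version, to a RefSeq table of GRCm38.p6, which named 26762 of 55681 probes. Group means of the 9 samples were compared by limma's moderated statistics, with Benjamini-Hochberg adjustment across the 47997 probes kept and a threshold of 0.05. The model was tested on simulated data. Nothing in the labels says that samples of a group came from separate cultures or preparations, so p-values measure the spread between these samples, which may be technical. The text names the 10 listed genes with all their probes, at most the 5 largest rises and 5 largest falls among other imprinted genes and imprint regulators that passed, the 3 genes of most similar pattern (those of Meg3 are not reported here), and marker lists as means. Where that rule did not name them, Igf2, Dio3, Zfp57, Kcnq1, Malat1, Neat1, Xist, Nanog, Sox2, Elavl3 and Snap25 were named after their values were seen. The genes and lists were chosen with earlier results of these data known. Alternatives covered background offset, normalization, filters, probe choice, sample averaging, slide, replicate number, moderation and each sample left out. Sequences came from RefSeq tables of GRCm38.p6, where 9 of the 10 genes had a promoter window.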

Additional observations from a re-analysis of the deposited data

How the results depend on the processing

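Between groups, 496 recomputed differences of single genes kept their direction and their side of the threshold, 16 kept their direction but no longer passed, 1 passed only under an alternative and 15 turned sign, none of the latter for a difference that passed. In OS and CSE, 1 gene passed in place of 2 with the deposited log2 table, where the values of Mest are those of a probe with 10 spots described below, and the count ranged from 1 to 2 when samples were left out (1 without both CSE2 and OS3, where Peg3 no longer passed). In CSE and ESCs, 2 genes passed in place of 4 without moderation of the variances, and 2 to 4 when samples were left out (2 without ES1, where Mest and Mirg no longer passed). Mest also lost this call without each CSE sample in turn (adjusted p = 0.0548 to 0.0854), with the processed intensity scaled to the 75th percentile (0.118) and as the mean of its probes (0.117). That scaling moved the median of all probes to -0.31 for OS minus ES and -0.28 for CSE minus ES. The cause was not tested.

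For differences that did not pass, Grb10 for CSE minus ES was 0.0753 with slide as a block and ranged from -0.20 to 0.11 when samples were left out. In the same way, Grb10 ranged from -0.49 to 0.18 for OS minus CSE and from -0.54 to 0.13 for OS minus ES, Kcnq1ot1 from -0.78 to 0.80 for OS minus CSE, Meg3 from -1.89 to 0.16 for CSE minus ES and from -2.06 to 0.17 for OS minus CSE, and Peg3 from -0.24 to 0.91 for CSE minus ES. Deviations of same-numbered arrays from their group means correlated from -0.39 to 0.36. This cannot decide whether the numbers in the sample names pair the samples. The deviations of the 2 ESC arrays mirror each other, and OS1 and OS2 are nearly the same. With the replicate number as a block and every array as a sample, 2 genes passed for OS minus CSE, 4 for OS minus ES and 4 for CSE minus ES. The call of no gene changed in these comparisons, while 6 genes passed the F-test in place of 5. Of the differences between the ESC lines, 46 recomputed values stayed within the noise between spots of the reported one and 10 moved further, with Mest ranging from -2.94 to -0.27, the latter in the deposited table. The number of arrays and the single array of each ESC line limit every comparison.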

Other observations

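In the deposited table of log2 values, the main probe of Mest was listed at 0.936 in ES1, 1.21 in ES2, 0.810 to 1.00 in the OS arrays and 1.29 to 1.33 in the CSE arrays, where the scanner files gave 9.53, 12.08, 8.40 to 10.03 and 12.86 to 13.42. This probe has 10 spots. Over the 372 probes with 10 spots that the table holds, the median ratio of the deposited to the recomputed log2 value was 0.0994. Over the 29 probes with 2 spots it was 0.498, and over the 43256 probes with 1 spot it was 0.976. The main probes of the 7 other measured genes have 1 spot each. In the table as deposited, Mest differed between OS and CSE by -0.40 (limma, adjusted p = 0.202). With the deposited values of each probe multiplied by its number of spots, chosen after this was seen, Mest differed between OS and CSE by -3.96 (limma, adjusted p = 0.00376) and between CSE and ESCs by 2.39 (adjusted p = 0.0383).

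A second probe for Mirg, named so in the study's own supplement and through no accession here, was at 10.96 in G4-2 and 10.30 in D3, at 6.06, 6.55, 6.95 and 8.77 in OS1+2, OS3, OS4+5 and OS6, and at 7.14, 9.15 and 6.41 in CSE1 to CSE3. It was lower than in ESCs in OS (-3.55, limma, adjusted p = 0.0137) and in CSE (-3.07, adjusted p = 0.0323). Its highest OS and CSE samples were OS6 and CSE2, as for the main probe of Mirg and the main probe of Meg3.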
